A study of Mus musculus with 2 samples.

Results

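The Notch pathway lets neighbouring cells signal by direct contact. Ligands of the Delta and Jagged families on one cell bind a Notch receptor on the next, the receptor is cut first by an ADAM protease and then within the membrane by gamma-secretase, and the freed intracellular domain joins the DNA-binding protein RBPJ to switch on genes of the Hes and Hey families. In embryonic tissue the pathway is known for vessel and mural cell development, for holding muscle progenitors undifferentiated and for patterning in epithelium.

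Here 10 genes of this pathway are described in embryonic tongue: the receptors Notch1, Notch2 and Notch3, the ligands Dll1, Dll4, Jag1 and Jag2, and the target genes Hes1, Hey1 and Heyl. They were chosen by symbol, 10 of 22072 gene symbols in the deposited tables, and FPKM (mapped fragments scaled by transcript length and library size) was summed per symbol. Each of the 10 genes had 1 transcript row, with an OK status in both libraries, and all 10 reached 1 FPKM, so none was lost to the filter on low values.

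RNA came from tongues dissected from mouse embryos of mixed background at embryonic day 12. The control library had the genotype Osr1f/+, 1 conditional (floxed) allele of the zinc finger factor gene Osr1, with no Cre named in its label. The mutant library was Osr1f/-; Wnt1cre, the conditional allele over a null allele that every cell of the embryo carries, with Wnt1cre, which acts in the neural crest lineage and so in the tongue's connective tissue but not in its muscle or epithelium. The design text says that tongues of 3 control and mutant pairs were pooled before RNA extraction, and each genotype gave 1 library. No test between the genotypes was therefore possible, and every ratio below sets 1 library against the other. The intervals are 95% counting intervals from estimated reads and hold no variation between embryos.

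The deposited coverage put the depth at about 19000000 reads in the control and 23200000 reads in the mutant library, at which 3 reads on a 1 kb transcript are worth 0.158 and 0.129 FPKM. Osr1 had 56.8 FPKM in the control against 18.4 in the mutant library (ratio 0.325, 0.300 to 0.352), in the direction of the labels, though the value includes reads from whatever part of the gene the conditional allele keeps. A gene was measured if it reached 1 FPKM in at least 1 library, which 12383 did. For counting, a gene was past the threshold where the higher of its 2 values of FPKM plus 1 stood at least 25% above the lower, and 94.6% of measured genes were not. Ratios of single genes are of plain FPKM. Markers of tongue mesenchyme and muscle were present at high levels in both libraries, for example Pdgfra at 75.3 and 80.3 FPKM and the muscle actin gene Actc1 at 298 and 322 FPKM, in control and mutant order.

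Levels in the control library ran from Dll4, above 7.91% of measured genes, to Hes1, above 80.8%. The differences between the libraries were small. In the mutant library 8 of the 10 genes were lower and 2 were higher, where 48.8% of all measured genes were lower. The median log2 ratio of the 10 genes was −0.09, and that of all measured genes was 0.0035. Of the 10 genes 1, Jag1, was lower past the 25% threshold, as were 2.20% of measured genes, and 0 were higher past it, as were 3.23% of measured genes. At a threshold of 1.1-fold 2 of the 10, Jag1 and Hes1, were lower (12.0% of measured genes) and 0 higher (14.2%), and at 1.5-fold 0 were lower (0.581%) or higher (0.896%). The counting interval of the ratio lay below 1 for 3 of the 10 genes, Jag1, Hes1 and Notch1, where it did so for 10.3% of measured genes. It lay above 1 for 1, Notch2, where it did so for 10.7%. Among the 8970 genes that reached 5 FPKM these shares were 11.4% below and 11.2% above. In RNA of a whole organ, fewer cells of a type and less RNA per cell cannot be told apart.

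**Figure D1:**
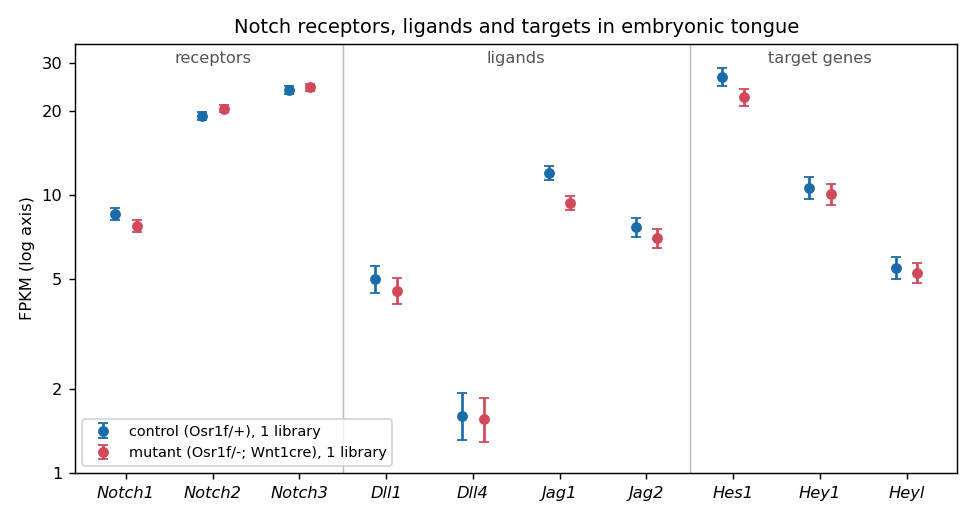
FPKM (log axis) of the 10 genes, with control and mutant libraries as blue and red points and bars for the 95% Poisson counting interval of each value. Hes1, Notch3 and Notch2 are the most abundant in both libraries and Dll4, at 1.60 and 1.56 FPKM, is the least.

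The summed level of the receptors was nearly the same in both libraries. Notch3, the receptor known from mural cells of vessels and also made in mesenchyme (NM_008716, mm9 chromosome 17, 32257838 to 32303797, 7943 nt), was the most abundant of them. It had 24.0 FPKM in the control against 24.4 FPKM in the mutant library, about 3608 and 4505 reads. The ratio of Notch3 was 1.02, with a counting interval of 0.976 to 1.07 that includes 1. Notch3 lay above 78.1% of measured genes in the control library and above 78.9% in the mutant.

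Notch2, a broadly expressed receptor (NM_010928, chromosome 3, 97817461 to 97954290, 10506 nt), had 19.2 FPKM in the control against 20.5 FPKM in the mutant library. It was the one gene of the 10 whose interval lay above 1, at a ratio of 1.06 (1.02 to 1.11) from about 3831 and 4997 reads. The size was within what many genes showed, since 76.7% of measured genes had a lower log2 ratio and the rest a higher or equal one. The bounds of the 2 Notch2 levels, 18.6 to 19.8 FPKM and 19.9 to 21.1 FPKM, lay next to each other without overlap.

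Notch1, the receptor central to endothelial and progenitor signalling (NM_008714, chromosome 2, 26313422 to 26359342, 9489 nt), differed in the other direction. It had 8.53 FPKM in the control against 7.74 FPKM in the mutant library, for a ratio of 0.906 (0.846 to 0.972) from about 1535 and 1705 reads. The ratio intervals of Notch1 and Notch2 did not overlap, so these receptors differed from each other in ratio by more than counting error. A lower log2 ratio than that of Notch1 was found in 13.5% of measured genes.

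Notch4, the remaining receptor of the mouse and one made mainly by endothelium, had 2.41 FPKM in the control against 2.28 FPKM in the mutant library (ratio 0.946, 0.809 to 1.11). The 4 receptors summed to 54.1 FPKM in the control against 54.9 FPKM in the mutant library. Notch3 made up 44.2% and 44.5% of that sum, Notch2 35.5% and 37.3%, Notch1 15.8% and 14.1%, and Notch4 4.46% and 4.16%, so the order of the receptors was the same in both libraries.

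Of the 4 ligands, Jag1 alone had a counting interval below 1, while the intervals of the other 3 included 1 and overlapped that of Jag1. Jag1, the Jagged ligand of mesenchyme, vessels and epithelial placodes (NM_013822, chromosome 2, 136907187 to 136942256, 5493 nt), showed the largest difference of the 10 genes. It had 12.0 FPKM in the control (11.4 to 12.7) and 9.35 FPKM in the mutant library (8.82 to 9.89), levels whose intervals did not overlap. The ratio was 0.777 (0.717 to 0.842). It rested on about 1253 and 1192 reads, fewer in the mutant although that library was 1.22 times deeper. On the scale of FPKM plus 1 the difference was 1.26-fold, close to the threshold. A lower log2 ratio was found in 2.11% of measured genes, and in 1.14% of the 8970 genes with at least 5 FPKM.

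Jag2, the other Jagged ligand, known from epithelium of the oral cavity (NM_010588, chromosome 12, 114146801 to 114167706, 4054 nt), had 7.66 FPKM in the control against 7.0 FPKM in the mutant library. Its ratio of 0.914 (0.816 to 1.02, about 589 and 659 reads) had an interval that includes 1 and overlaps that of Jag1. Jag1 stood at 1.57 times the level of Jag2 in the control and at 1.34 times in the mutant library.

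Dll1, the Delta ligand that acts on muscle progenitors (NM_007865, chromosome 17, 15504318 to 15512787, 3428 nt), had 4.97 FPKM in the control against 4.52 FPKM in the mutant library. From about 323 and 360 reads its ratio was 0.910 (0.781 to 1.06), a difference within counting error. Dll4, the Delta ligand of arterial and sprouting endothelium (NM_019454, chromosome 2, 119151520 to 119161402, 3451 nt), was the lowest of the 10 genes, at 1.60 FPKM in the control against 1.56 FPKM in the mutant library. Its interval was the widest (ratio 0.971, 0.744 to 1.27, about 105 and 125 reads), so a difference smaller than these bounds was not detectable at this depth. The Dll4 locus overlaps the end of the model Gm14207, which had only 0.135 and 0.0990 FPKM, and no other of the 10 loci overlaps another gene model in the tables.

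Together the 4 ligands summed to 26.3 FPKM in the control against 22.4 FPKM in the mutant library, for a ratio of sums of 0.854. Jag1 held 45.8% of the ligand sum in the control and 41.7% in the mutant, ahead of Jag2 with 29.2% and 31.2%, Dll1 with 18.9% and 20.2% and Dll4 with 6.11% and 6.95%.

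The target genes encode basic helix-loop-helix repressors. Hes1, the broadest of them (NM_008235, chromosome 16, 30065443 to 30067882, 1451 nt), had 26.6 FPKM in the control (24.7 to 28.6) and 22.5 FPKM in the mutant library (20.9 to 24.2). The ratio was 0.846 (0.764 to 0.938) from about 731 and 758 reads, the second largest difference of the 10 genes, at 1.17-fold on the scale of FPKM plus 1. A lower log2 ratio was found in 4.65% of measured genes. Hes1 was first in the order of levels in the control and second, after Notch3, in the mutant library. The level intervals of these neighbours overlapped in both libraries, whereas the ratio intervals of Hes1 and Notch3 (0.976 to 1.07) did not overlap.

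Hey1, which acts with Notch in vessels and mesenchyme (NM_010423, chromosome 3, 8663359 to 8667038, 2205 nt), had 10.6 FPKM in the control against 10.1 FPKM in the mutant library (ratio 0.949, 0.834 to 1.08, about 444 and 516 reads). Heyl, a relative best known from mural and muscle cells (NM_013905, chromosome 4, 122910799 to 122927113, 4532 nt), had 5.49 FPKM in the control against 5.24 FPKM in the mutant library (ratio 0.956, 0.845 to 1.08, about 471 and 552 reads). Both intervals include 1 and both overlap that of Hes1. For Hey1 and Heyl the intervals leave out a decrease as large as that of the Jag1 ratio, 0.777. The interval of Jag1 itself (0.717 to 0.842) overlaps that of Hey1 and ends just below that of Heyl.

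**Figure D2:**
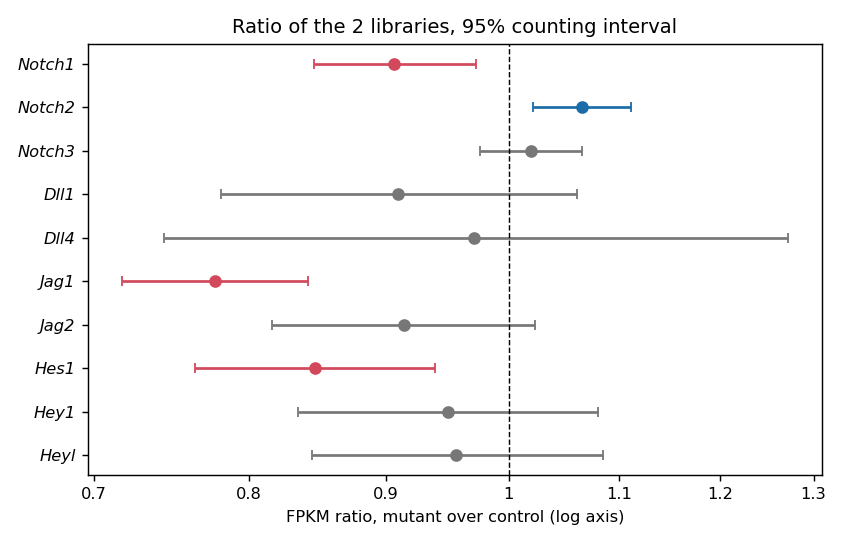
Ratio of mutant over control FPKM (log axis) for each of the 10 genes, with 95% counting intervals as bars. Intervals of Notch1, Jag1 and Hes1 (red) lie below 1, that of Notch2 (blue) lies above 1 and the other 6 (grey) include 1.

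Since FPKM is scaled for length, the levels of the 10 genes can be ordered. In the control library the order was Hes1, Notch3, Notch2, Jag1, Hey1, Notch1, Jag2, Heyl, Dll1 and Dll4. Counting intervals overlapped between the neighbours Hes1 and Notch3, Jag1 and Hey1, Notch1 and Jag2, and Heyl and Dll1, and were apart for the other neighbours. In the mutant library Notch3 stood before Hes1 and Hey1 before Jag1, and the order was otherwise the same. There the intervals of Hes1 and Notch2 overlapped as well.

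The rest of the pathway was described from lists of 62 further genes, of which 53 were measured. Of these, 32 were higher and 21 lower in the mutant library, where 48.8% of all measured genes were lower, and their median log2 ratio was 0.03. Past the 25% threshold 0 of the 53 were lower (2.20% of measured genes) and 0 higher (3.23%). The counting interval lay above 1 for 8 of the 53 (10.7% of measured genes) and below 1 for 4 (10.3%).

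Among the genes that cut the receptor, 7 of 9 measured were higher and 2 lower, and the interval lay above 1 for 1 of them and below 1 for 1. Adam10, the protease of the first ligand-induced cut, had 31.8 FPKM in the control against 32.9 in the mutant library (ratio 1.03, 0.984 to 1.09). Aph1a, a gamma-secretase subunit, had 35.4 and 37.6 FPKM (1.06, 0.997 to 1.15). Of the nuclear complex, 4 of 8 were higher and 4 lower. Rbpj, the DNA-binding partner of all 4 receptors, had 38.5 and 39.8 FPKM (1.03, 0.990 to 1.08), and Snw1, a cofactor, had 32.5 and 32.0 FPKM (0.985, 0.917 to 1.06). The corepressors were split, with 5 higher and 7 lower of 12, and Ctbp1 and Hdac1 had ratios of 0.980 and 0.961.

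Mib1, the ubiquitin ligase that ligands need for endocytosis, had 18.7 and 18.8 FPKM (1.01, 0.936 to 1.08), and Mib2 had a ratio of 1.05 (0.936 to 1.17). For 0 of the 3 measured genes of ligand endocytosis did the interval leave out 1. Among all measured genes it lay above 1 for 10.7% and below 1 for 10.3%. Of 11 genes of receptor turnover and inhibition, 7 were higher and 4 lower, where 48.8% of all measured genes were lower. Dtx3 had 55.8 and 57.0 FPKM, and the ubiquitin ligase gene Itch had a ratio of 0.964. Fbxw7, which marks the Notch intracellular domain for breakdown, had 7.09 FPKM in the control against 8.38 in the mutant library (1.18, 1.06 to 1.33). Nrarp, a feedback inhibitor and itself a Notch target, had 6.46 and 5.99 FPKM (0.928, 0.795 to 1.08). The non-canonical ligand gene Dlk1, at 228 and 219 FPKM, had a ratio of 0.961, and Dner had 1.18 (1.0 to 1.4).

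Fringe enzymes add sugars to Notch and set which ligands it answers. Lfng, which is also a known Notch target, showed the largest difference among the 53 genes. It had 14.4 FPKM in the control against 11.8 FPKM in the mutant library, for a ratio of 0.825 (0.737 to 0.923) from about 622 and 628 reads. Its relatives Rfng and Mfng had ratios in the other direction, 1.15 (1.03 to 1.28) from 14.5 FPKM and 1.11 (0.878 to 1.43) from 3.44 FPKM. The intervals of Lfng and Rfng did not overlap. The 3 fringe genes summed to 32.3 and 32.4 FPKM, of which the share of Lfng was 44.4% in the control against 36.6% in the mutant library. Pofut1 and Poglut1, which place the sugars that fringes extend or that Notch folding needs, had ratios of 1.0 and 0.979.

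Of the other Hes and Hey genes only Hes6 was measured. Hes6, an atypical member that is expressed in muscle and neural precursors, had 38.6 FPKM in the control against 42.7 FPKM in the mutant library (1.11, 1.02 to 1.2). Hey2 stayed under 1 FPKM, at 0.900 and 0.975. Hes5 rested on about 8 reads in the control and 1 read in the mutant library (ratio 0.109, 0.0023 to 0.761), too few for a level. Hes2, Hes3 and Hes7 had at most 3 reads in either library.

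**Figure D3:**
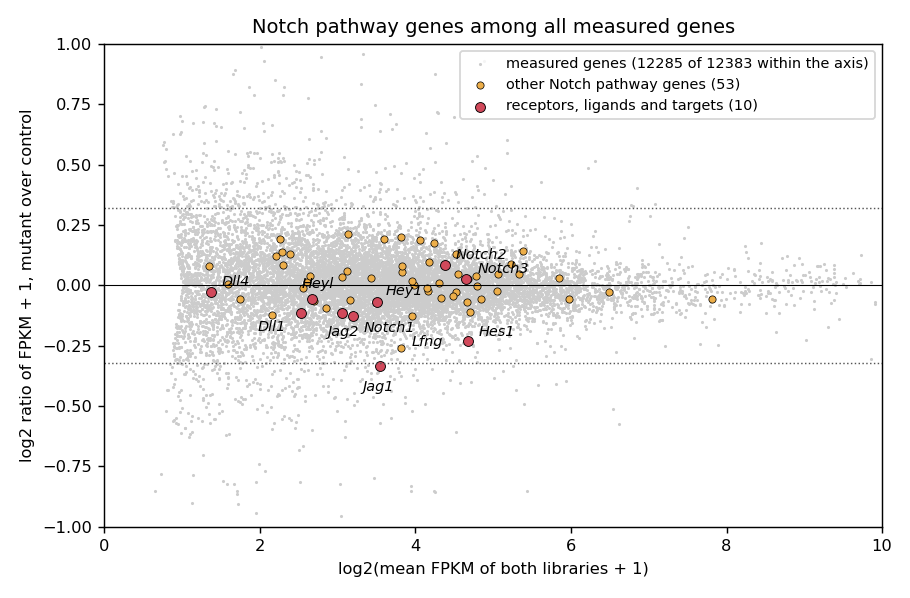
Log2 ratio of FPKM plus 1 (mutant over control) against log2 of the mean FPKM plus 1 for measured genes (grey), the 53 other Notch pathway genes (yellow) and the 10 receptors, ligands and targets (red). Dotted lines mark the 25% threshold, and Jag1 is the one pathway point beyond them.

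The promoter windows of these genes were read from RefSeq on GRCm38.p6 (not the mm9 build of the tables) because RBPJ binds a short DNA core, TGGGAA, and Hes and Hey proteins bind E boxes such as CACGTG. Each window held 250 bases before and 50 after a start, and both strands were searched. Entries were found for 7 of the 10 genes. There were none for Hes1, Hey1 and Heyl. The 8 windows of the 7 receptor and ligand genes held 0 matches to TGGGAA and 0 to CACGTG, where 25.6% and 7.15% of all 32851 windows held one. This says only that these letters are not in these windows. Of 68 windows of the other pathway genes, 19 (27.9%) held TGGGAA and 7 (10.3%) held CACGTG. Lfng held 2 cores and an E box, with the second core sharing 2 bases with the E box. Nrarp held an E box and Hes5 held 2 cores. Matches were also found in genes of other steps of the pathway, such as cores in Rbpj and Kat2a and E boxes in Adam10 and Tle3. The sequences of Jag1 and Lfng are shown because these genes had the largest differences among the 10 genes and among the other pathway genes. Both are printed 5′ to 3′ on the gene's strand, from 250 bases before the RefSeq start up to the first base that a GENCODE transcript covers. Capitals mark matches, and Jag1 has none. The region of Jag1 is chr2:137116645-137116770 (minus strand) and that of Lfng is chr5:140607091-140607319 (plus strand).
Jag1: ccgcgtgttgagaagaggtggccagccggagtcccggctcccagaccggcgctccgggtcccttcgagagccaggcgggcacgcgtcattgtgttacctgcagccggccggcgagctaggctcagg
Lfng: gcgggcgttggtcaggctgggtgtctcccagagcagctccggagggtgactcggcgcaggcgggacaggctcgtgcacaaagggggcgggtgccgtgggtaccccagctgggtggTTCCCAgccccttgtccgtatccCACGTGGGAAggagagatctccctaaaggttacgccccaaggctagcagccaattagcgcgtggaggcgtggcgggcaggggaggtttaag
In Lfng the first core, TTCCCA on the printed strand, begins 135 bases before the start, and the joined E box and second core run from 112 to 103 bases before it. A match is a description of the letters and no evidence of binding in these tongues.

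Several cell types of the tongue use Notch genes, and their markers are given beside the results. For comparison with every marker list below, 48.8% of all measured genes were lower in the mutant library. The counting interval lay below 1 for 10.3% of measured genes and above 1 for 10.7%. Endothelial markers, the cell type of Dll4 and Notch4, were 7 higher and 3 lower of 10, with summed levels of 83.9 FPKM in the control against 87.8 in the mutant library. Cdh5 had a ratio of 1.03 (0.958 to 1.1) and Pecam1 1.24 (1.13 to 1.35). Endothelial intervals lay above 1 for 2 of the 10 and below 1 for 1, Kdr (ratio 0.911, 0.834 to 0.995). Mural markers, beside Notch3, Heyl and Jag1, were 6 lower and 2 higher of 8, with sums of 205 and 196 FPKM. Their intervals lay below 1 for 4 of the 8 and above 1 for 1. Of the mural markers Acta2, also a gene of early muscle, had a ratio of 0.973 (0.937 to 1.01) and Pdgfrb, also made by fibroblasts, had 0.891 (0.849 to 0.937).

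Epithelial markers, beside Jag1 and Jag2, were lower in 8 of 9, with sums of 133 FPKM in the control against 117 in the mutant library. Their intervals lay below 1 for 6 of the 9 and above 1 for 0. The keratin genes Krt15 and Krt5 had ratios of 0.853 (0.786 to 0.926) and 0.796 (0.735 to 0.862). Muscle markers, beside Dll1, Hes6 and Heyl, were 4 higher and 4 lower of 8, with sums of 484 and 514 FPKM. Actc1 and Myog, both among the 4 higher, had ratios of 1.08 and 1.05. The 4 lower were Pax3 (ratio 0.631, 0.504 to 0.771), Myf5 (0.910), Myod1 (0.937) and Pax7 (0.971). Of these, only the interval of Pax3 left out 1. Neuronal markers were lower in 5 of 7 measured, with sums of 42.9 and 37.0 FPKM. The 2 most abundant differed in opposite directions, Gap43 with a ratio of 0.809 (0.702 to 0.931) and Dcx with 1.32 (1.24 to 1.41). Neuronal intervals lay below 1 for 4 of the 7 and above 1 for 1, Dcx. Neurog1 and Neurog2, which define sensory neuron precursors, were listed at 0 in both libraries, and no other marker of these lists was. Schwann lineage markers were lower in 5 of 6 measured, with sums of 52.0 and 43.0 FPKM, and their intervals lay below 1 for 3 and above 1 for 0.

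Tongue mesenchyme markers, a list that holds Osr1 itself, were 4 higher and 4 lower of 8, with sums of 582 and 524 FPKM. Their intervals lay above 1 for 2 and below 1 for 3, Osr1 among these. Without Osr1 the sums were 526 and 505 FPKM, with 4 higher and 3 lower of 7, and Col1a1 and Pdgfra had ratios of 0.901 and 1.07. Erythroid markers were lower in 5 of 5 measured, with sums of 1314 and 1072 FPKM, and their intervals lay below 1 for 4. Macrophage markers were higher in 4 of 4 measured, with sums of 14.5 and 16.8 FPKM. Only 1 of these, Cd68 (ratio 1.60, 1.16 to 2.29), had an interval that left out 1. The part of any of these cell types in the values of Jag1, Hes1, Notch1, Notch2 and Lfng was not tested.

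**Figure D4:**
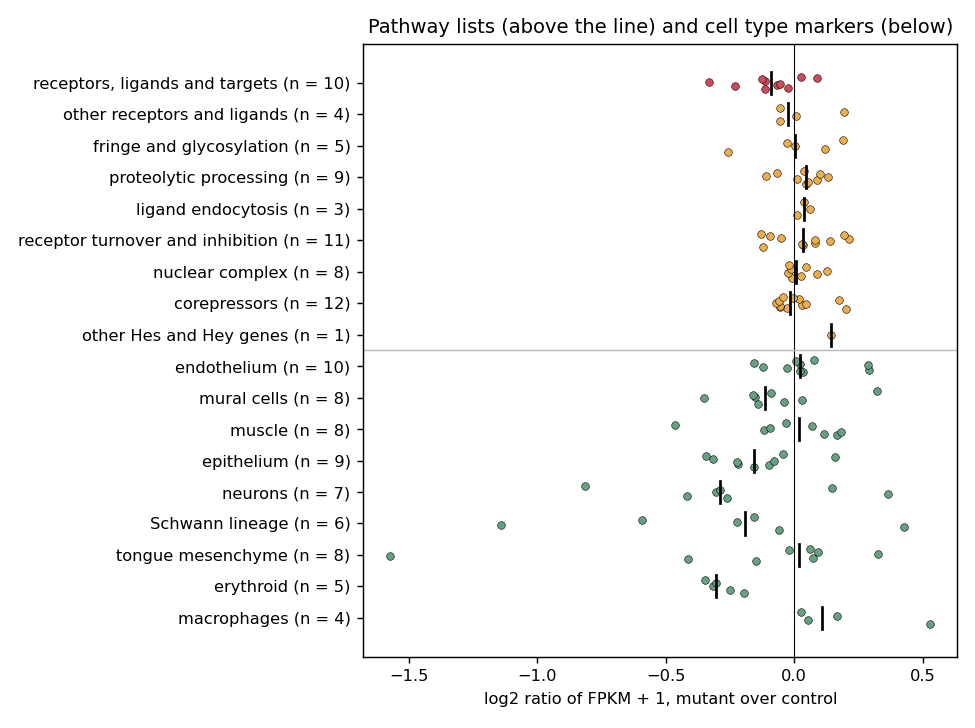
Log2 ratio of FPKM plus 1 (mutant over control) of each measured gene, by pathway list (red and yellow) and by cell type marker list (green), with the median of each list as a black bar. Medians of the pathway lists with at least 3 genes lie between −0.09 and 0.05. Epithelial, neuronal, Schwann and erythroid markers have medians of −0.16, −0.29, −0.19 and −0.30. Mural markers have a median of −0.11 and macrophage markers of 0.11, while those of endothelium, muscle and tongue mesenchyme are 0.02.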

How the data were processed

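Total RNA of embryonic tongue was converted to cDNA by a NuGEN Ovation RNA-Seq v2 kit, per the labels' protocols, and gave 1 library for each of 2 genotypes. Bowtie 0.12.7, TopHat 1.4.1 and the build mm9 are named in the submitters' processing notes. Per the file headers, the deposited FPKM and coverage (a signal not scaled for depth) are per RefSeq transcript, in the layout of a Cufflinks isoform table. Its version and the strandedness were not given in the sources used here. Genes with a row of another status than OK were left out, 96 of them with at least 1 FPKM. Locus starts count from 0 in the files and were raised by 1.

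Reads were estimated as coverage times length divided by 47.1 bases, the commonest lowest value in single-row genes of at least 1000 nt. Ratios have exact conditional (Clopper-Pearson) 95% intervals and levels exact Poisson intervals. Amplified reads are not independent molecules, so these intervals cover counting error alone. Log2 ratios used a pseudocount of 1 FPKM. Python 3.11.15, pandas 2.3.3 and SciPy 1.17.1 were used.

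The genes and lists were chosen with earlier results of these data known. All 10 genes are named, with Osr1, other pathway genes past the 25% threshold and up to 2 of each list by control FPKM. Notch4, Lfng, Rfng, Mfng, Fbxw7, Nrarp, Hes2, Hes3, Hes5, Hes7, Pax3, Pax7, Myf5, Myod1, Neurog1 and Neurog2 were named after their values were seen. So were Acta1, Chrna1, Kdr, Furin, Ncstn, Kat2a and Tle3. With 2 libraries no gene was named for likeness of pattern.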

Additional observations from a re-analysis of the deposited data

How the results depend on the processing

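The log2 ratio of each of the 10 genes was recomputed under 7 alternatives: pseudocounts of 0.1 and 5 FPKM, a median of 0, TPM, quantile normalization, the most abundant row alone, and estimated reads. Of these, 3 (the median of 0, TPM and quantile normalization) rescale the libraries and so can in principle turn a sign. Here the median of 0 could not, since it moved values by 0.0035, less than the smallest log2 ratio (Dll4, −0.026). Nor could TPM, since the FPKM sums were nearly equal, 305841 for the control against 305019 for the mutant library. Only quantile normalization was free to turn a sign, and under it all 10 genes kept their direction. Under the 3 rescalings 0 of 30 values moved beyond their counting interval. The other 4 settings keep the sign by construction, since each gene has 1 row and the reads come from the same coverage. The median log2 ratio ran from −0.10 to −0.06, and that of Jag1 from −0.36 to −0.25. The number of lower genes past the fold depends on the threshold and on the pseudocount. Of the 10 genes, 2 (Jag1 and Hes1) were lower by at least 1.1-fold, where 12.0% of measured genes were, and 0 by 1.5-fold, where 0.581% were. At a pseudocount of 5 FPKM the log2 ratio of Jag1 was −0.25, which falls short of the 25% threshold. Of the 53 other pathway genes, 8 were higher by 1.1-fold (14.2% of measured genes) and 1, Lfng, was lower. With no filter on low values, 1 of the 62 other pathway genes, Hes5, was lower past the 25% threshold. Hes5 rested on about 8 control reads against 1 mutant read, too few for a level. No share of all genes was computed without the filter. With the reads divided by 2, or at 5 FPKM (a setting chosen after seeing the data), the interval lay below 1 for 3 genes and above 1 for 1. With the reads divided by 2 this was barely so for Notch1 (upper bound 0.9999) and Notch2 (lower bound 1.003). The share of all measured genes was not computed for that setting. At 5 FPKM it did so for 11.4% and 11.2% of the 8970 genes. No paired analysis was possible because each genotype has 1 library, and no library could be left out for the same reason.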
